A study of Mus musculus with 4 samples.

Results

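The genes described here are a given set of rows of the deposited gene table, chosen by their names: Hmgcs1, Idi1, Fdps, Sqle, Lss, Cyp51 and Dhcr7, which code for enzymes of cholesterol synthesis, and Insig1, a regulator of the pathway. They are 8 of the 55418 genes in the table, and none of them codes for an uptake receptor, so genes of cholesterol uptake are taken from a separate list below. The study asked what the loss of the kinase gene Pim3 does to the transcriptome of mouse embryonic stem cells. RNA was sequenced from wild-type (WT) and Pim3-/- ESCs, with 2 libraries in each group. All were of the line E14 (strain 12910la in the labels), on gelatin with serum and LIF, and the Pim3-/- libraries came from separate clones made with CRISPR/Cas9 and a pair of guide RNAs. Each clone also differs from the WT cultures by its own history of transfection and cloning, which cannot be told apart from the loss of Pim3. Any p-value below measures only the spread between these cultures and clones.

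Cholesterol is made from acetyl-CoA through mevalonate, isoprenoid diphosphates and squalene, and the enzymes of this route are transcribed together under the transcription factor SREBP2. When sterols in the endoplasmic reticulum are low, SCAP carries the SREBPs to the Golgi, where proteases release their active part. INSIG1 holds the SCAP-SREBP complex back when sterols are plentiful. The same factor drives genes of lipoprotein uptake, so that synthesis and uptake of cholesterol are usually adjusted together, and the isoprenoid branch of the route also feeds protein prenylation and ubiquinone. Dividing cells such as ESCs need cholesterol for new membrane.

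The libraries held between 22029427 and 25668307 counts. Counts of Pim3 were 4392 and 4953 for WT, against 4970 and 4804 for the clones. A count over the whole gene includes reads from an edited transcript, so it does not test the labels. The ESC markers Pou5f1, Sox2, Nanog, Klf4, Esrrb, Zfp42, Tdgf1 and Dppa5a were all detected, with a summed level of 9185 to 10228 CPM in WT and 6237 to 6588 CPM in Pim3-/- ESCs. CPM are counts relative to the size of the library, after scaling with edgeR's TMM factors.

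Transcripts of 5 of the 8 genes were higher in Pim3-/- ESCs, and the change was not even along the route. Lss rose 2.47-fold, Insig1 2.32-fold, Dhcr7 2.21-fold, Sqle 1.68-fold and Hmgcs1 1.61-fold, whereas Cyp51 (1.28-fold), Idi1 (1.07-fold) and Fdps (1.06-fold) did not pass the test. All 8 genes passed the filter on low counts, so that 5 of 8 were higher with an adjusted p under 0.05 and 0 were lower (quasi-likelihood test of edgeR, QL below, adjusted by Benjamini-Hochberg over all tested genes). Among all 18444 tested genes, 17.6% were called higher and 16.2% lower, 33.8% in all. The 8 genes were named with earlier results of these data known, so these shares describe the set and do not test it. In 7 of the 8 genes both Pim3-/- libraries were above both WT libraries, as in 38.3% of all tested genes, while 34.2% of all genes had both below. The median log2 fold change of the 8 genes was 0.72, against 0.07 for all tested genes.

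**Figure D1:**
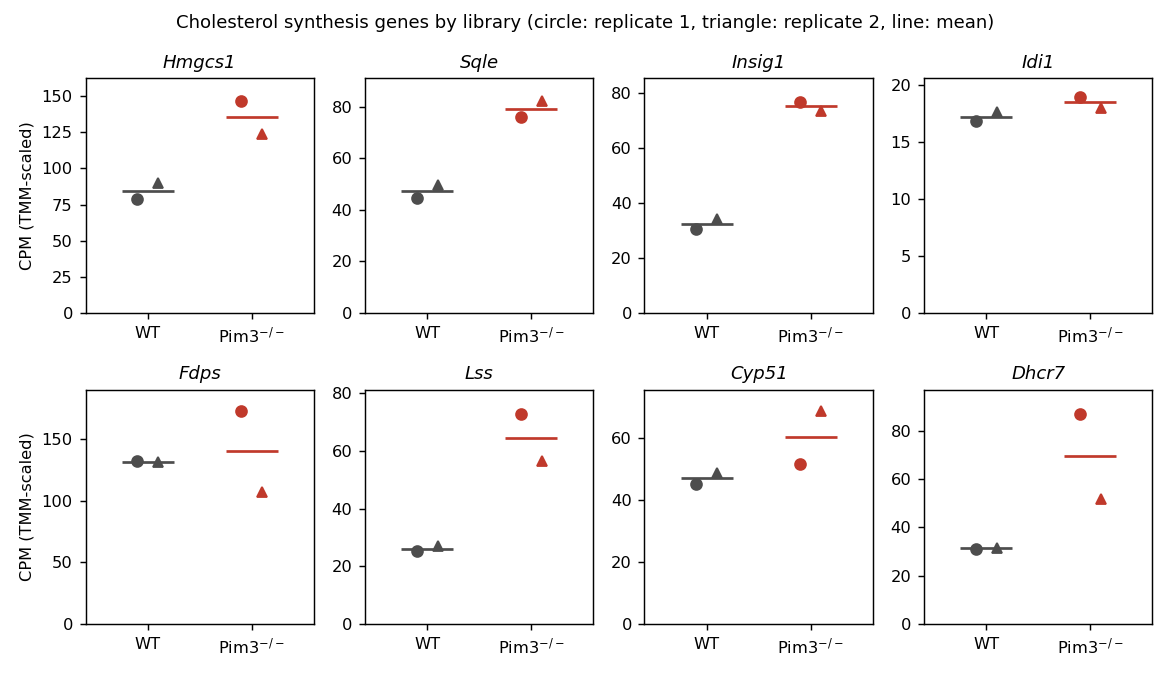
Each panel plots the CPM of 1 gene (vertical axis, from 0) in the 2 WT and the 2 Pim3-/- libraries, with circles for replicate 1, triangles for replicate 2 and a line at the mean. In every panel except that of Fdps, both Pim3-/- libraries lie above both WT libraries.

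Promoter sequences were looked up because these genes share a regulator. Of the 8 genes, 6 had an entry in the RefSeq promoter windows of GRCm38.p6, which run from 250 bases before to 50 bases after a start site; Sqle and Fdps had none. Windows were searched on both strands for the letters of a sterol regulatory element, TCACNCCAC, for a stricter spelling of it with every letter fixed, and for the CCAAT box, the site of the SREBP partner NF-Y. The 3 sequences below belong to genes that rose. They show the 5′ to 3′ bases that lie before both the RefSeq and the GENCODE start, with CCAAT or its reverse complement ATTGG and, in Hmgcs1, the sterol element TCACCCCAC in capitals.
Hmgcs1, chr13:119690101-119690350, plus strand: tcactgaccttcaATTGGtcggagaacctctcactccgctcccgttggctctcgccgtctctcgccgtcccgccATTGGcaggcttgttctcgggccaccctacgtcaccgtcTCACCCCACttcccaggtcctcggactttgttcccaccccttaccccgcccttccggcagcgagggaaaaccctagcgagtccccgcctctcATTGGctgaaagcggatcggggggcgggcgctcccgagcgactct
Insig1, chr5:28071162-28071362, plus strand: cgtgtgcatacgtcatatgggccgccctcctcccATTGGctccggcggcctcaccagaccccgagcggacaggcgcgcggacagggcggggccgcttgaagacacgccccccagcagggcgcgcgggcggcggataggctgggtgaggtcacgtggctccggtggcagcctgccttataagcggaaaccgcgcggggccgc
Lss, chr10:76531355-76531587, plus strand: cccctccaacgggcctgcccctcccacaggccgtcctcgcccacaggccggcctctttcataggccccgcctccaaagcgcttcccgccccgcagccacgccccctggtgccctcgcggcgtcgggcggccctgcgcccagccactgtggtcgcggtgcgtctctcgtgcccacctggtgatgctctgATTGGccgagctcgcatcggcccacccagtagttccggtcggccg
The Hmgcs1 element lies at positions -137 to -129 from the RefSeq start, and 3 of the 4 CCAAT boxes of its window are in the stretch shown. The 6 genes have 8 windows between them, of which 6 hold a CCAAT box, as do 37.4% of all 32851 windows. They are the single windows of Hmgcs1, Insig1, Lss, Idi1 and Cyp51 and 1 of the 3 windows of Dhcr7, which also rose and is not shown. That Dhcr7 window, chr7:143829964-143830263, lies inside the gene, and the window at the start of the gene held no CCAAT box. TCACNCCAC was found in Hmgcs1 alone of the 6, beside 1.24% of all windows, and the stricter spelling in none, beside 0.0913%. These are matches of letters in short windows, and other spellings and more distant sites were not searched.

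Hmgcs1 codes for HMG-CoA synthase, which makes HMG-CoA at the entry to the mevalonate route. It stood at 78.6 and 89.7 CPM in the WT libraries and at 146.8 and 124.1 CPM in the Pim3-/- libraries, with counts of 1505, 2030, 3919 and 3198. The groups did not overlap, and the gap between them was wider than the difference within either. The log2 fold change came to 0.69 ± 0.18 (standard error), with an adjusted p of 0.0239 (edgeR QL).

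Idi1, the isomerase that readies isoprenoid units for joining, had 16.9 and 17.6 CPM in WT ESCs and 19.0 and 18.0 CPM in Pim3-/- ESCs. Both Pim3-/- values were above the WT ones by a small margin, with a log2 fold change of 0.10 and a 95% interval from -0.33 to 0.53. Fdps, which joins isoprenoid units into farnesyl diphosphate, the branch point between sterols and prenylation, had 131.8 and 130.9 CPM in WT. The Pim3-/- clones lay on either side of these values, at 172.3 and 107.2 CPM. Its log2 fold change of 0.09 had a 95% interval from -0.46 to 0.64, so that neither a moderate rise nor a moderate fall can be told from no change in these libraries. Leaving out a library turned its sign, to -0.31 without Pim3-/- replicate 1, while without Pim3-/- replicate 2 it was 0.37.

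Sqle codes for squalene epoxidase, the first oxygen-requiring step and a point of control of the sterol part of the route. It rose from 44.6 and 49.7 CPM to 76.2 and 82.4 CPM, without overlap (log2 fold change 0.75, standard error 0.16). Lss, the cyclase that folds the epoxide into lanosterol, rose from 25.2 and 27.2 CPM to 72.8 and 56.5 CPM. This was the largest of the 8 log2 fold changes, at 1.30 ± 0.19 (standard error), with an adjusted p of 0.0050 (edgeR QL). Even the lower Pim3-/- clone had more than every WT library.

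Cyp51, the lanosterol demethylase that acts directly after Lss, had 45.0 and 48.7 CPM in WT and 51.6 and 68.6 CPM in Pim3-/- ESCs. The groups did not overlap, but the lower clone was close to the WT range, and the log2 fold change of 0.36 (95% interval from -0.08 to 0.80) did not pass the test (edgeR QL, adjusted p = 0.174). Dhcr7, the reductase of the final step to cholesterol, was nearly equal in the WT libraries, at 31.3 and 31.5 CPM, and reached 86.9 and 51.9 CPM in the Pim3-/- clones. The log2 fold change came to 1.14 ± 0.25 (standard error), with an adjusted p of 0.0137 (edgeR QL). It was 0.71 without Pim3-/- replicate 1 and 1.45 without Pim3-/- replicate 2.

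Insig1, itself a target of SREBP and a brake on it, was the most even of the genes that rose. It stood at 30.7 and 34.1 CPM in WT and at 76.6 and 73.5 CPM in Pim3-/- ESCs. The log2 fold change came to 1.21 ± 0.16 (standard error), with an adjusted p of 0.00443 (edgeR QL). Its paralog Insig2 had 23.4 and 24.2 CPM against 24.8 and 27.6 CPM, and its log2 fold change of 0.14 (95% interval from -0.26 to 0.54) did not pass.

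Fold changes in this comparison depended on expression level, so the genes were also set beside genes of similar level. Between a mean log2 CPM of 4 and 6, where Sqle, Insig1, Idi1, Lss, Cyp51 and Dhcr7 lie, 14.8% of 5045 tested genes were called higher and the median log2 fold change was -0.09. Between 6 and 8, where Hmgcs1 and Fdps lie, 5.42% of 2417 genes were called higher and the median was -0.41. All 8 genes were therefore above the median of their level, by 0.19 (Idi1) to 1.40 (Lss) on the log2 scale. In its range of level, 2.08% of genes had a larger log2 fold change than Lss, 2.68% than Insig1, 3.25% than Dhcr7, 4.05% than Hmgcs1 and 9.47% than Sqle. For Fdps, Cyp51 and Idi1 the shares were 21%, 24.4% and 38.5%.

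**Figure D2:**
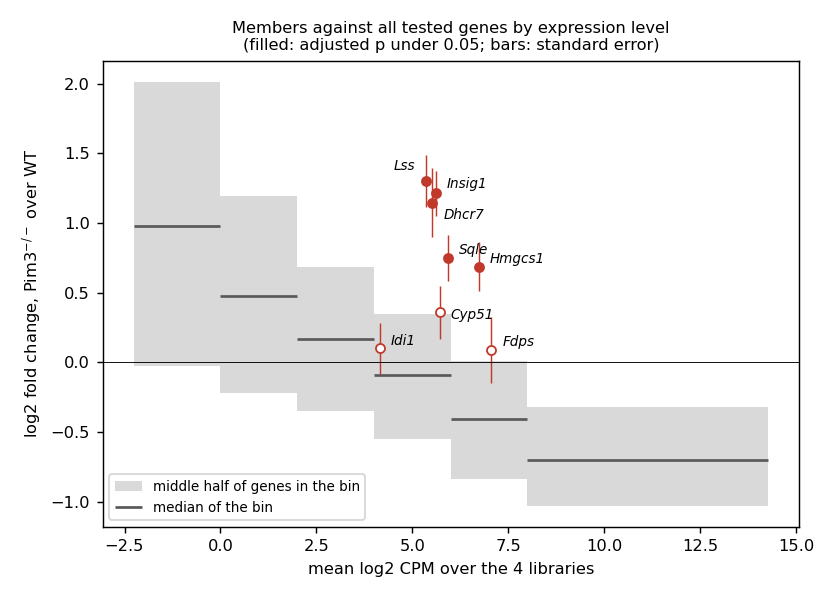
The horizontal axis is the mean log2 CPM over the 4 libraries and the vertical axis the log2 fold change of Pim3-/- over WT. Grey boxes run from the lower to the upper quartile of all tested genes in bins of level, lines mark their medians, and points with standard errors are the 8 genes, filled at an adjusted p under 0.05. The bin medians fall from 0.98 to -0.70 with level, and the 5 filled points lie above the boxes of their bins.

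The clones were not alike in these genes. Against the mean of the WT libraries, replicate 1 was higher by 1.47 log2 units in both Lss and Dhcr7, and replicate 2 by 1.11 and 0.72. Hmgcs1 and Fdps were also further up in replicate 1, while Cyp51 (0.14 and 0.55) and Sqle (0.69 and 0.80) were further up in replicate 2. Insig1, at 1.24 and 1.18, and Idi1, at 0.14 and 0.06, differed least. Over the 8 genes the median difference between the clones was 0.30 log2 units, and between the WT libraries it was 0.11. For all tested genes, which include many at lower levels, these were 0.35 and 0.18. Between a mean log2 CPM of 4 and 6 they were 0.27 and 0.12, and between 6 and 8 they were 0.28 and 0.11. The 8 genes were thus about as variable as genes of similar level.

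**Figure D3:**
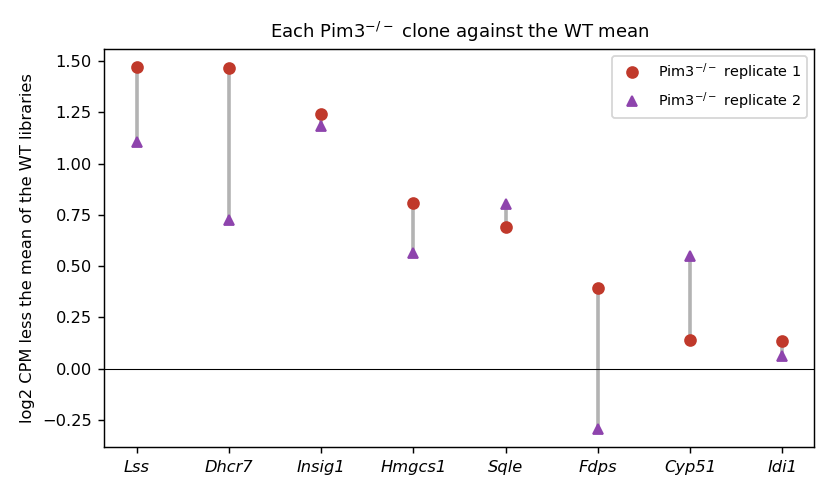
For each of the 8 genes, the vertical axis gives the log2 CPM of Pim3-/- replicate 1 (circle) and replicate 2 (triangle) less the mean log2 CPM of the WT libraries. All points are above 0 except Fdps in replicate 2, at -0.29, and the clones change order between genes.

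To compare levels between genes, CPM were divided by the length of all annotated exons of a gene in GENCODE M21 (GRCm38), in kilobases. This length includes the exons of every annotated transcript and so lowers the value of genes with long minor forms, such as Lss with 10787 bases. In WT ESCs, Fdps led with 31.2 ± 0.15 CPM per kb (SD, n = 2), ahead of Hmgcs1 with 18.3 ± 1.70. Cyp51 (10.6 ± 0.59) and Insig1 (10.5 ± 0.79) did not differ beyond their spread, and Sqle (8.51 ± 0.65), Dhcr7 (5.40 ± 0.025), Idi1 (4.92 ± 0.15) and Lss (2.43 ± 0.13) followed. In Pim3-/- ESCs, Fdps (33.2 ± 10.9) and Hmgcs1 (29.5 ± 3.51) overlapped. Insig1 came next with 24.3 ± 0.70, above Sqle (14.3 ± 0.79), Cyp51 (13.6 ± 2.72) and Dhcr7 (11.9 ± 4.25), which overlapped one another, and Lss (5.99 ± 1.07) no longer stood below Idi1 (5.27 ± 0.19).

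Some of these counts can hold reads of neighbours or copies, since the study does not state whether reads were assigned by strand. In GRCm38 the genes lie at chr13:119690379-119708260 (Hmgcs1), chr13:8885501-8892451 (Idi1), chr15:59315077-59331192 (Sqle), chr10:76531588-76557138 (Lss), chr7:143823145-143848410 (Dhcr7) and chr5:28071363-28078662 (Insig1), on the plus strand, and at chr3:89093588-89101959 (Fdps) and chr5:4081145-4104746 (Cyp51), on the minus strand. Fdps shares 1124 exonic bases with Gm43738 on the same strand, and Gm43738 had 2612, 3061, 4893 and 3056 counts, close to the 2524, 2964, 4598 and 2763 of Fdps in the same libraries. Hmgcs1 overlaps the antisense gene Gm48342 over 557 exonic bases and Lss the antisense gene 4930483K19Rik over 381. The latter counted 32 and 67 reads in WT, then 238 and 180 in the clones, and the former 353 and 592, then 1256 and 1034. Cyp51 shares 166 exonic bases with Akap9 on the other strand. The processed pseudogenes that match a stretch of Fdps, Idi1 or Insig1 at 95% identity or more, over at least 100 bases, held at most 17 counts in a library. The part of neighbours and copies in these values was not tested.

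Other enzymes of cholesterol synthesis moved less uniformly. For this and the following lists of pathway genes, the shares of all tested genes called in the ranges of level of their genes averaged 10.7% to 19.3% higher and 14.0% to 30.9% lower. Of 14 further enzymes, all tested, 8 were above 0 and 6 below, with 2 called higher, 1 called lower and a median log2 fold change of 0.12. At the levels of these 14 genes, 11.1% of all tested genes were called higher and 28.95% lower. Msmo1, the methyl oxidase after Cyp51, rose from 81.3 and 78.6 CPM to 117.1 and 127.2 CPM. Ebp, the sterol isomerase near the end of the route, fell from 51.1 and 41.2 CPM to 27.7 and 26.1 CPM, a log2 difference of -0.78 ± 0.18 (standard error). Fdft1, squalene synthase, had a log2 fold change of 0.13 (95% interval from -0.25 to 0.52). Of the enzymes named here, those that passed the test were Hmgcs1 at the entry and Sqle, Lss, Msmo1 and Dhcr7 in the sterol part of the route, with Ebp in the opposite direction.

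Among 10 regulators of the SREBP pathway, 4 were called higher and 0 lower, with a median log2 fold change of 0.36. At the levels of these 10 genes, 12.55% of all tested genes were called higher and 25.4% lower. Srebf2, the gene of SREBP2, rose from 144.5 and 151.8 CPM to 238.6 and 232.4 CPM (log2 fold change 0.67, standard error 0.17). Scap, the escort of the SREBPs, went from 22.2 and 24.4 CPM to 54.0 and 57.2 CPM, a log2 fold change of 1.25 with clones that nearly coincide. Mbtps1, the protease of the first SREBP cut, rose by 0.75 on the log2 scale. Srebf1 had 58.7 and 59.4 CPM in WT and 100.9 and 74.4 CPM in Pim3-/- ESCs, and just missed the threshold with an adjusted p of 0.0544 (edgeR QL).

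Genes of cholesterol uptake and transport were mostly higher. All 16 were tested, 9 were called higher and 0 lower, and the median log2 fold change was 0.68. At the levels of these 16 genes, 17.4% of all tested genes were called higher and 16.9% lower. The HDL receptor Scarb1 (log2 fold change 0.83), the lysosomal cholesterol exporter Npc1 (0.77), the sterol carrier Stard4 (1.02), the oxysterol-binding protein Osbp (0.52) and the lipoprotein receptor Lrp8 (1.13) rose. Vldlr, the VLDL receptor, went from 13 and 6 counts to 215 and 207, the largest log2 fold change of the list at 4.11 (standard error 0.44). It was 4.85 without WT replicate 1 and 3.47 without WT replicate 2. It passed the filter on low counts only with the Pim3-/- libraries, and of the 13 genes of the list with at least 10 counts in every library, 7 were called higher. Mylip, a ubiquitin ligase that acts on lipoprotein receptors, did not pass the test, with a log2 fold change of -0.50 (95% interval from -1.07 to 0.07).

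**Figure D4:**
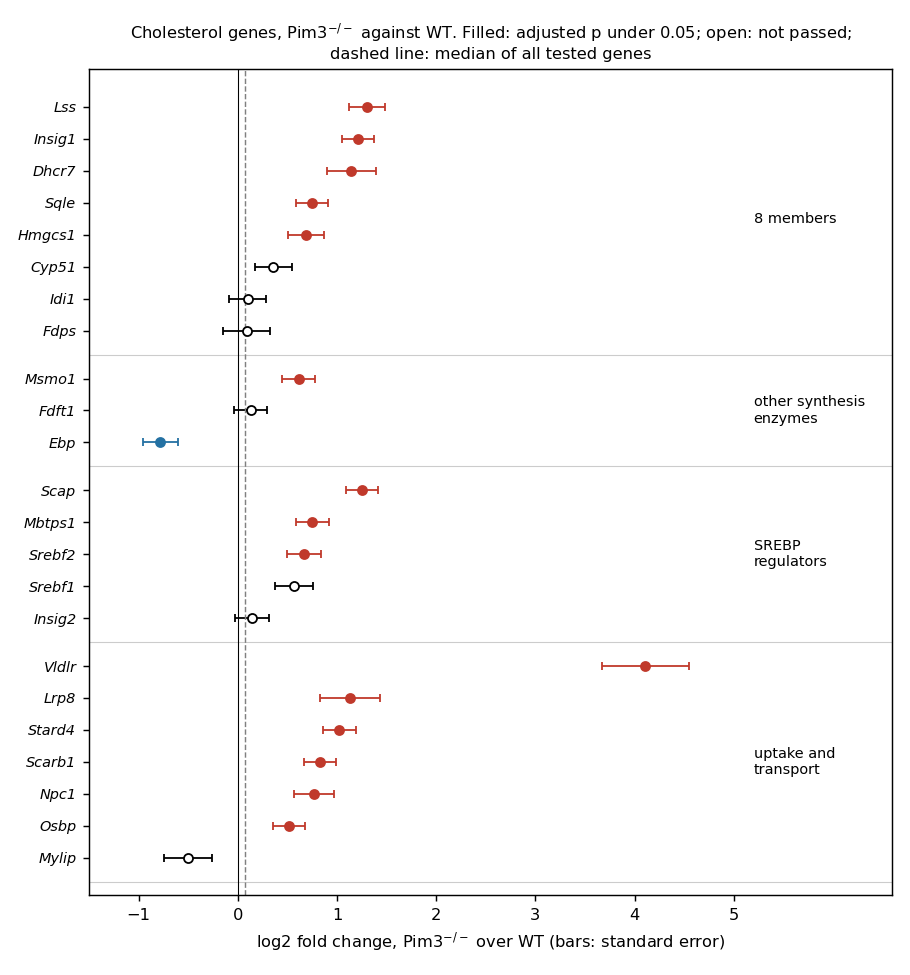
The horizontal axis is the log2 fold change of Pim3-/- over WT with its standard error for the 8 genes and for the genes named in the text from the lists of other synthesis enzymes, SREBP regulators and uptake and transport. Filled points passed an adjusted p of 0.05 (red higher, blue lower) and open points did not. Ebp is the only filled point below 0, and Vldlr, at 4.11, lies furthest to the right.

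Calls were few in the isoprenoid branch and more frequent among fatty acid genes. The 13 genes of the isoprenoid branch, which feeds protein prenylation and ubiquinone, had a median log2 fold change of -0.34. Of them, 9 were below 0, 2 were called lower and 0 higher. The count of 2 is no larger a share than the 16.2% called lower among all tested genes, and against the median of genes of similar level 6 were above, 7 below and the median difference was -0.08. Those called lower were Fnta, the common subunit of the farnesyl and geranylgeranyl transferases (log2 fold change -0.83, standard error 0.18), and Pdss1, which makes the ubiquinone tail (-0.82, standard error 0.23). Of 12 SREBP targets in fatty acid synthesis, 4 were called higher, namely Scd2 (0.66), Elovl6 (0.60), Aacs (0.59) and the malic enzyme Me1 (1.82), and 0 lower. At the levels of these 12 genes, 10.7% of all tested genes were called higher and 30.9% lower. All 12 lay above the median of genes of similar level, with a median difference of 0.40. Fasn, the fatty acid synthase, had 175.2 and 208.7 CPM in WT and 190.8 and 124.8 CPM in Pim3-/- ESCs, with a log2 fold change of -0.28 (95% interval from -0.83 to 0.27). Acly, which supplies cytosolic acetyl-CoA to both routes, had one of -0.36 (95% interval from -0.84 to 0.12), and both values were above 0 when libraries were scaled by their totals. Scd1, a desaturase, had one of 0.12.

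Of 13 genes of cholesterol efflux, esterification and oxidation, 12 were tested, 5 were called higher and 1 lower. The higher ones were weakly expressed, at levels where many genes were called higher (26.7% of those with a mean log2 CPM under 0), and all but Cyp27a1 passed the filter on low counts only through the Pim3-/- libraries. Cyp27a1, a sterol hydroxylase, rose from 39 and 39 counts to 161 and 173, and Cyp46a1, Lcat, Abcg4 and Cyp7b1 had at most 9 counts in a WT library. Abcg1, an exporter of cholesterol, fell from 22.2 and 24.4 CPM to 15.0 and 10.0 CPM (log2 fold change -0.90, standard error 0.24). Abca1, the other main exporter, had a log2 fold change of 0.60 (95% interval from -0.32 to 1.53), and Soat1, which esterifies cholesterol for storage, one of 0.69 with an adjusted p of 0.0639. Apoe, a lipoprotein component, separated the clones: 1094 and 1059 CPM in WT, but 233.5 CPM in Pim3-/- replicate 1 and 1124 CPM in replicate 2. Its log2 fold change was -0.66 with both clones, 0.045 without replicate 1 and -2.22 without replicate 2.

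**Figure D5:**
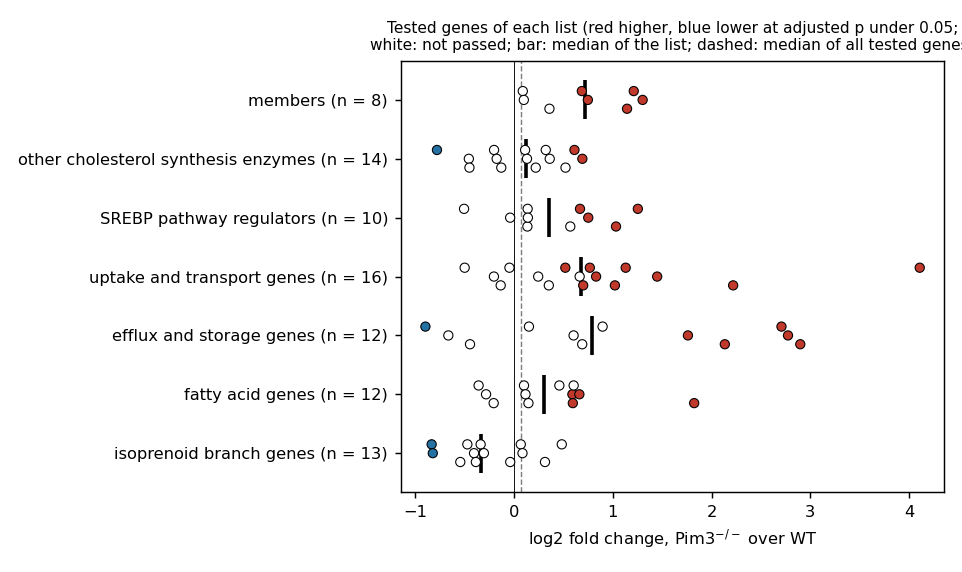
Each row shows the log2 fold changes (Pim3-/- over WT) of the tested genes of 1 list, with genes called higher in red and lower in blue (adjusted p under 0.05), a bar at the median of the list and a dashed line at 0.07, the median of all tested genes. The medians run from -0.34 for the isoprenoid branch to 0.79 for efflux and storage, with 0.72 for the 8 genes and 0.68 for uptake and transport. Less the median of genes of similar level, which the plot does not show, these became -0.08, 0.46, 0.97 and 0.71.

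Markers of primitive endoderm moved in the same comparison. Of 8 such markers 7 were tested and called higher, and Foxa2 was under the filter, with at most 7 counts. Sox17 and Sox7, with at most 5 counts in a WT library, and Dab2, with 4 and 17, passed the filter only through the Pim3-/- libraries. The count of 7 is therefore partly set by the filter. With at least 10 counts in every library there were 4 of these markers, and 4 were called higher. At the levels of these markers 22.5% of all tested genes were called higher, as a mean over their ranges of level. Their summed level was 14.9 and 22.1 CPM in WT and 161.3 and 153.5 CPM in Pim3-/- ESCs, mostly from Col4a1, while Gata6 went from 0.6 and 0.8 to 9.0 and 4.3 CPM. Of 8 trophoblast markers 6 were tested and 2 called higher, with summed levels of 98.8 and 98.2 CPM in WT and 76.4 and 103.7 CPM in Pim3-/- ESCs. The 2 were Eomes and Gata3, and Gata3, with 4 counts in each WT library, passed the filter only through the Pim3-/- libraries. At the levels of the tested trophoblast markers, 20.15% of all tested genes were called higher, as a mean over ranges of level. Of 8 fibroblast markers 3 were tested and 1, Pdgfrb, was called higher, beside 19.0% of all tested genes at their levels. The summed levels were 27.7 and 28.2 CPM against 49.0 and 44.8 CPM, with Lum at 0 in every library. Among the ESC markers, Pou5f1 and Nanog were called lower, with log2 fold changes of -1.12 and -0.90, as was Dppa5a, and Klf4 was called higher. At ESC marker levels, 51.2% of all tested genes were called lower and 3.38% higher, as a mean over ranges of level. Against the median of genes of similar level, 5 of the 8 were above and 3 below. For Nanog the paper reported the opposite direction by qPCR and western blot, a rise in Pim3-/- ESCs, with Oct4 (Pou5f1) and Sox2 not disrupted. In bulk RNA a change in the share of cells of a type and a change of RNA within cells cannot be told apart, and the part of these markers in the values of the cholesterol genes was not tested.

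The number of calls changed with the libraries in the fit. Without WT replicate 1, all 8 log2 fold changes remained above 0 but 0 of the 8 genes passed the adjusted threshold, in a fit that assumes that a lone WT library varies like the Pim3-/- clones and calls 402 genes higher in all. Fewer of the 8 genes were also called without WT replicate 2, and more without either Pim3-/- replicate, as was so for all tested genes. In such fits the spread within groups comes from 1 group alone, so their numbers of calls are not comparable. The median log2 fold change of the 8 genes was 0.58 without WT replicate 1 and 0.72 without WT replicate 2. It was 0.62 without Pim3-/- replicate 1 and 0.73 without Pim3-/- replicate 2. Calls of other synthesis enzymes, regulators and uptake genes also became fewer when a WT library was left out. Scap then had log2 fold changes of 1.14 without WT replicate 1 and 1.24 without WT replicate 2. When libraries were scaled by their total counts, the median of all tested genes moved from 0.07 to 0.52, and the median of the 8 genes moved with it to 1.17, or 0.65 above that of all genes in both fits. Ebp, Abcg1, Fnta and Pdss1 stayed below 0 with that scaling, at -0.32, -0.45, -0.38 and -0.37, but none of these 4 was then called lower.

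Over the 4 libraries, the genes outside the lists whose centred log2 CPM lay closest to the median course of the 8 genes were Foxm1, Sipa1l2, Rapgef6, Nup214 and Tbkbp1, at Euclidean distances of 0.027 to 0.057 among 9575 genes with a mean of at least 10 CPM. With 4 libraries in 2 groups, such a likeness describes little more than the size of the difference between the groups.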

How the data were processed

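Gene counts from RNA-seq of E14 ESCs were used, with 2 libraries from WT cultures and 2 from Pim3-/- clones. The authors deposited raw counts per gene, without normalization. Their methods name Cutadapt, Hisat2, mm10 and Ensembl genes, whereas the submitters' processing notes list Trim Galore, STAR, featureCounts and GRCm38, so which programs made the counts is uncertain. Whether strand was used is not given in the sources used here. The table of transposable elements was not analysed here.

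Genes were filtered in edgeR 4.0.16 by filterByExpr, with a count minimum of 10 and a total minimum of 15, which left 18444 of 31418 genes with a count, and tested by quasi-likelihood with TMM factors and Benjamini-Hochberg adjustment in R 4.3.3. Standard errors follow from the log2 fold change and the F statistic. The fit was also run on simulated counts, but the outcome is not reported here and is not used as support. An exact permutation test of 2 against 2 libraries cannot go below 0.333, so none is given. Counting intervals cover counting error only. Alternatives were other scalings and filters, the Wald test of DESeq2 1.42.0 (the study names a Wald test without a program), a replicate block and the omission of each library. The 8 genes were given, and they and the lists were chosen with earlier results of these data known. Named from the lists were genes past the threshold and 18 key genes chosen by function, of which some are not reported here though the counts over their lists include them. Exon lengths and overlaps came from GENCODE M21, copies from BLAST 2.17.0 on its transcripts, promoters from RefSeq, and figures from matplotlib 3.10.9.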

Additional observations from a re-analysis of the deposited data

How the results depend on the processing

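Lss, Insig1, Dhcr7, Sqle and Hmgcs1 remained called higher with the size factors of DESeq2, library totals, no filter, the Wald test of DESeq2, the replicate block and a minimum of 10 counts in each library. Cyp51 was called only with library totals (log2 fold change 0.81, adjusted p = 0.0152 in edgeR's quasi-likelihood test) and without Pim3-/- replicate 1, and Fdps only without Pim3-/- replicate 2.

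With library totals, 6606 genes were called higher and 1092 lower, and the median of the 8 genes was 1.17. In that fit 7 other synthesis enzymes, 7 regulators, 7 fatty acid genes and 3 isoprenoid branch genes were called higher, and 0 other synthesis enzymes, 0 efflux genes and 0 isoprenoid branch genes lower, while Acly (0.090) and Fasn (0.16) turned positive. Without a filter the median of the 8 genes lay 0.41 above that of all genes, and with at least 10 counts in every library 1 efflux gene was called higher. Osbp lost its call with the size factors of DESeq2, without a filter and in the Wald test, Aacs in the last 2 of these, and Cyp7b1 in the Wald test.

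With 1 library left out, 402 to 5393 genes were called higher and 373 to 5255 lower. The number called higher was 0 to 6 for the 8 genes, 0 to 6 for other synthesis enzymes, 0 to 5 for regulators, 1 to 11 for uptake, 0 to 6 for efflux, 1 to 7 for fatty acid genes and 0 to 2 for the isoprenoid branch. The number called lower was 0 to 3 for other synthesis enzymes, 0 to 2 for regulators, 0 to 2 for uptake, 0 to 3 for efflux, 0 to 3 for fatty acid genes and 0 to 7 for the isoprenoid branch. The median of the 8 genes ran from 0.58 to 0.73, and from 0.53 to 0.68 relative to all genes. Log2 fold changes ran from 0.54 to 0.79 for Hmgcs1, 0.62 to 0.78 for Sqle, 1.09 to 1.22 for Insig1, 0.02 to 0.12 for Idi1, -0.31 to 0.37 for Fdps, 1.09 to 1.46 for Lss, 0.12 to 0.53 for Cyp51 and 0.71 to 1.45 for Dhcr7. They crossed 0 for Fdft1 (-0.0062 to 0.18), Apoe (-2.2 to 0.045) and Scd1 (-0.073 to 0.25). Apart from the number of libraries in a fit, the causes were not tested.

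The replicate numbers are not stated to pair the samples, and the differences between replicates 1 and 2 in the groups correlated at 0.0196 across genes. With a block for the replicate number, 5 of the 8 genes were called, Lss with a log2 fold change of 1.29 and Fdps with 0.05, and Srebf1 and Soat1 passed as well.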
